A study of Mus musculus with 9 samples.

Results

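The TGF-beta receptors, Smads and inhibitors were followed as 9 genes chosen by name: the ligand gene Tgfb1, the receptor genes Tgfbr1 and Tgfbr2, the signal transducers Smad2, Smad3 and Smad4, the inhibitory Smad7, and the corepressors Ski and Skil. All 9 were on the array, through 14 of 55537 probes kept, out of 20258 named genes, and all 9 were among the 20284 genes tested. The arrays held RNA of thymocytes sorted by CD4, CD8 and TCRβ from C57BL/6 mice, 9 one-colour Agilent arrays with 1 array per group. Mice labelled conditional knockout (CKO) carried Brd1flox/flox with Tie2-Cre, and controls carried wild-type Brd1 with the same Tie2-Cre, so that both genotypes expressed Cre from the Tie2 promoter, which is active in endothelial and haematopoietic cells. CKO and control arrays were paired for double-positive (DP) cells, for CD4 single-positive (CD4SP) cells and for CD8 single-positive (CD8SP) cells of mice aged 8 weeks, and for CD8SP cells of mice aged 14 weeks that also carried the OT-I receptor. A further array held CD4SP cells lacking surface TCRβ from CKO mice aged 8 weeks, with no control array.

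TGF-beta is secreted in a latent form and, once activated, binds the type II receptor encoded by Tgfbr2, which then activates the type I receptor encoded by Tgfbr1. The type I receptor phosphorylates Smad2 and Smad3, which enter the nucleus with Smad4 and switch genes on or off, whereas Smad7 blocks the receptor and Ski and Skil (SnoN) repress Smad-bound genes. Smad7 and Skil are themselves textbook targets of the pathway, and in the thymus TGF-beta is known for its part in the development of regulatory T cells and of CD8 lineage cells.

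A level is the log2 signal of a probe minus the 75th percentile of its array, and a gene is represented by its brightest probe. Because each probe has its own response, levels of different genes are not set against each other. The 75th percentile lay between 87.4 and 140 intensity units, and 39.0% to 45.9% of probes were well above background, the mark the scanner software gives to a detected probe. The gates were reflected in the co-receptors: Cd4 lay between 6.19 and 6.54 on the DP, CD4SP and TCRβ-negative arrays, against 3.14 to 3.50 on the CD8SP gate arrays, and Cd8a lay between -2.11 and -0.32 on the CD4SP gate arrays, against 4.60 to 5.46 on the rest. Brd1, the targeted gene and a subunit of histone acetyltransferase complexes, had levels of -0.33 (DP), -0.98 (CD4SP), -0.73 (CD8SP) and -0.73 (OT-I) on the arrays labelled CKO, against -0.79, -1.09, -1.37 and -1.34 on the matching control arrays. It was thus lower in none of the arrays labelled CKO (limma estimate 0.45, SE 0.19, adjusted p = 0.475), and as the position of its 1 probe relative to the deleted part is not given in the sources used here, the genotypes below go by the labels alone. The arrays lay on 2 slides, and only the CD8SP pair was split between them, with its CKO array beside the OT-I pair on slide 2 and its control on slide 1, so that slide and genotype cannot be told apart in it.

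The inhibitor Smad7 and the receptor Tgfbr2 were the members called between DP and single-positive cells at the threshold used. The call does not separate Tgfbr2 from Skil by size. In CD4SP over DP cells Skil had an estimate of 2.32 (limma adjusted p = 0.0804) and Tgfbr2 of 2.35 (limma adjusted p = 0.0422), and the Tgfbr2 call was lost under several alternatives given below. Smad7 rose in CD4SP and in CD8SP cells relative to DP cells, Tgfbr2 rose in CD4SP cells, and neither was called in the cells lacking TCRβ relative to DP cells. Tgfbr1, Smad2, Smad3 and Smad4 passed no test. Population contrasts were fitted with limma over all 9 arrays, with population and genotype as additive terms, and 2.16% of the 20284 genes tested were called higher and 0.922% lower in CD4SP than in DP cells at an adjusted p below 0.05. In CD8SP relative to DP cells 2.42% of genes were called higher and 1.04% lower, with 1 member, Smad7, called higher and none lower. Of the 9 members, 2 were called higher in CD4SP cells and none lower, with a median difference of 0.84 over the members against 0.00 over all genes tested.

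Smad7 encodes the inhibitory Smad that recruits ubiquitin ligases to the activated receptor. It stood at 1.69 and 1.43 on the CKO and control CD4SP arrays, 1.86 and 0.40 on the CKO and control CD8SP arrays, and 2.26 and 0.22 on the CKO and control OT-I arrays. On the DP arrays it read -3.92 and -4.22 for CKO and control, and on the TCRβ-negative array -5.54. It was well above background on all 6 arrays of CD4SP, CD8SP and OT-I cells, and on neither DP array nor the TCRβ-negative array. The share of all genes detected in this way was not counted. The CD4SP cells were at least 30.7-fold higher than DP cells, the bound being the lowest detected signal of each DP array (log2 difference at least 4.94, limma adjusted p = 0.0125). Undetected probes can lie above such a floor, as Ski did on the control CD4SP array, at -2.59 against a lowest detected level of -2.97. Every "at least" given here is therefore approximate. Smad7 entered the test through the arrays where it was detected, and its adjusted p values come from fitted levels that include the undetected signals, not from the bounds. The CD8SP cells were at least 22.8-fold higher than DP cells (log2 difference at least 4.51, limma adjusted p = 0.0102). On slide 1 alone the control CD8SP array exceeded the control DP array by at least 3.89 on the log2 scale, while the CD8SP call was lost with slide as a term in the fit (adjusted p = 0.0933). Ccr7, S1pr1 and Klf2, markers of mature single-positive cells, each rose in both contrasts. The myeloid and dendritic markers summed to 71.9 and 95.8 times the 75th percentile on the CKO and control CD4SP arrays and to 49.8 and 66.1 on the CKO and control DP arrays. On the CKO and control CD8SP arrays they summed to 145 and 91.0. Of these 8 markers 2 were called higher in CD8SP than in DP cells, Mpeg1 (4.92) and Itgax (4.69), and 1 was called lower. C1qa read -4.37 and -4.81 on the CKO and control CD8SP arrays, against -0.62 and -2.20 on the CKO and control DP arrays. The B cell markers summed to 2.408 and 2.499 on the CKO and control CD4SP arrays, 8.01 and 8.51 on the CKO and control CD8SP arrays and 14.1 on each DP array, with Cd79b, detected on 9 of 9 arrays, lower in CD4SP than in DP cells (-2.73, limma adjusted p = 0.0164). Of the other B cell markers Ms4a1 was detected on 3 arrays, Cd79a on 1 and Ebf1 and Pax5 on none. The natural killer (NK) markers summed to 19.8 and 35.0 on the CKO and control CD4SP arrays and to 10.7 and 7.67 on the CKO and control DP arrays. Klrb1c and Klra8 read 1.41 and 1.54 on the control CD4SP array and were detected on that array alone. The part of these markers in the Smad7 and Tgfbr2 differences was not tested.

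Tgfbr2 encodes the receptor that binds TGF-beta and starts the signal. Its level was 5.35 and 5.32 on the CKO and control CD4SP arrays, 4.89 and 3.94 on the CKO and control CD8SP arrays, and 5.58 and 4.33 on the CKO and control OT-I arrays. The DP arrays read 3.00 for CKO and 2.97 for control, and the TCRβ-negative array read 2.75. All 6 single-positive arrays other than the TCRβ-negative one thus lay above both DP arrays and above it. The share of all genes that split the arrays in this way was not counted. The CD4SP cells were 5.09-fold higher than DP cells (log2 difference 2.35, SE 0.40, limma adjusted p = 0.0422), all on slide 1. In CD8SP cells the difference from DP was 1.43 (SE 0.40, limma adjusted p = 0.118) and did not pass. The second Tgfbr2 probe, tested in a fit over all probes, gave 2.12 (SE 0.47, limma adjusted p = 0.0887) for CD4SP over DP cells. The call for the brightest probe was also lost with the median of both probes (adjusted p = 0.0546), under 2 other scalings (adjusted p = 0.0836 and 0.0790) and with slide as a term (adjusted p = 0.0761), with an estimate of 2.24 to 2.47.

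The bases upstream of the start of Tgfbr2 and of Tgfbr1 are shown because the receptor genes differed in this contrast: Tgfbr2 rose, and Tgfbr1 had a difference of -0.11 (SE 0.32, limma adjusted p = 0.929). The windows are the 250 bases before the start in RefSeq on GRCm38.p6, on chr9:116175364-116175613 (minus strand) for Tgfbr2 and chr4:47352972-47353221 (plus strand) for Tgfbr1, written along the strand of the gene. Capitals mark CAGAC (the core of Smad-binding elements), GGGCGG (a GC box) and CCAAT, each on either strand.
Tgfbr2: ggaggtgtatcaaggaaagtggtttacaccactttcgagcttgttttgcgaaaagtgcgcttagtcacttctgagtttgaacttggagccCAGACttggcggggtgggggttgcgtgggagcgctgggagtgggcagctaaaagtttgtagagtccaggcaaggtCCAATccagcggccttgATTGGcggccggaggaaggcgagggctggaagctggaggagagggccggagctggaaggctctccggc
Tgfbr1: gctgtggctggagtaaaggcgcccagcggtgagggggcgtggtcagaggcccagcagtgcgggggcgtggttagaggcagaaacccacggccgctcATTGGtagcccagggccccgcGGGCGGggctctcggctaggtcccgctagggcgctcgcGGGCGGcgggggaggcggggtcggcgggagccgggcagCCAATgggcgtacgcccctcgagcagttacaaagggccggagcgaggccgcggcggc
The Tgfbr2 window held 1 CAGAC, 2 CCAAT and no GGGCGG, and the Tgfbr1 window held 2 GGGCGG, 2 CCAAT and no CAGAC. RefSeq lists a second start of Tgfbr1, whose window (chr4:47385966-47386215) held 1 CAGAC and neither of the other words, so the presence of CAGAC did not separate the 2 genes. No marked match overlapped another. Over 32851 windows of the same length, 42.2% held CAGAC, 32.7% held GGGCGG and 33.8% held CCAAT, so that each of these short words is common and a match is a description of the letters only.

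Skil encodes SnoN, a corepressor that binds Smad complexes and is degraded when the pathway is active. It read 2.64 and 3.14 on the CKO and control CD4SP arrays, 2.11 and 1.10 on the CKO and control CD8SP arrays, 1.89 and 0.69 on the CKO and control OT-I arrays, 0.43 and 0.72 on the CKO and control DP arrays, and 0.50 on the TCRβ-negative array. Its level was the mean of 8 or 9 spots on an array, and the SD between these spots was 0.045 to 0.113, a technical spread within an array and not between animals. Both CD4SP arrays were the highest, and the OT-I control array (0.69) lay within the range of the DP arrays. The differences were 2.32 for CD4SP over DP cells (SE 0.50, limma adjusted p = 0.0804) and 1.03 for CD8SP over DP cells (SE 0.50, limma adjusted p = 0.318), neither of them past the threshold. With normexp background correction the CD4SP difference was 1.87 and passed (adjusted p = 0.0345). Its relative Ski was well above background on the DP control and CD4SP CKO arrays only, between -3.70 and -2.18 over the 9 arrays, and no direction is drawn from it.

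The ligand gene Tgfb1 was well above background on every array, at 2.76 and 2.63 on the CKO and control CD4SP arrays, 2.00 and 1.86 on the CKO and control CD8SP arrays, 2.55 and 2.10 on the CKO and control OT-I arrays, 2.07 and 1.64 on the CKO and control DP arrays, and 1.89 on the TCRβ-negative array. The CD4SP arrays stood above all others, but the difference from DP of 0.84 (SE 0.26) did not pass (limma adjusted p = 0.175). The type I receptor gene Tgfbr1 kept to a range of 0.65 to 1.60. Among the transducers, Smad2 lay between 1.18 and 1.65 on the 9 arrays and Smad4, the partner shared with the BMP branch, between 3.52 and 4.17. Smad3 ranged more widely, from 2.75 on the control CD8SP array to 4.25 on the control OT-I array. It was 1.26 higher in OT-I than in polyclonal CD8SP cells (SE 0.32), which did not pass (limma adjusted p = 0.362), and OT-I carriage and age differ together in that comparison.

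**Figure D1:**
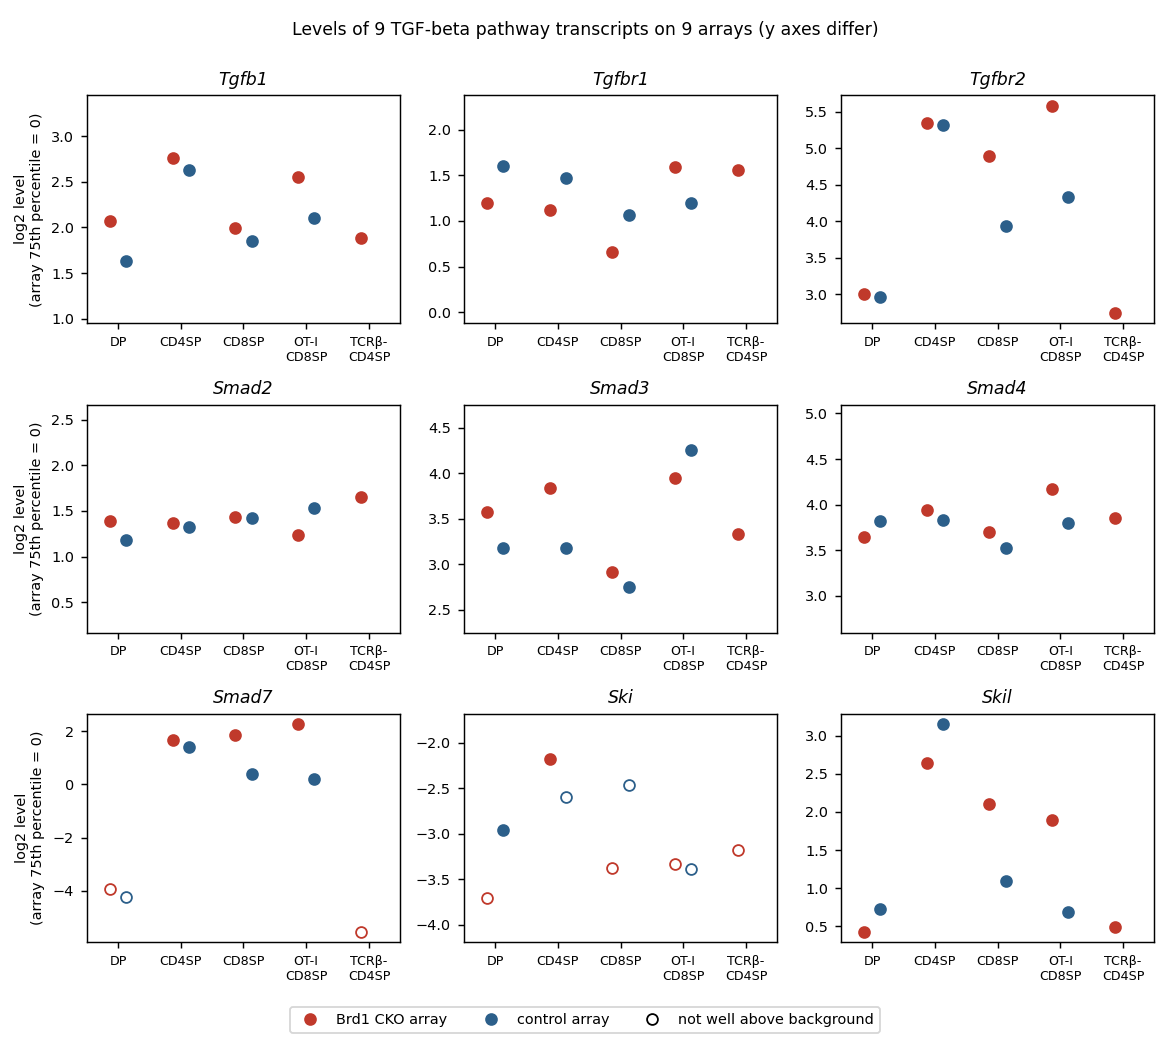
Log2 level of each of the 9 transcripts (y axis, relative to the array's 75th percentile, with ranges that differ between panels) in the 5 sorted populations (x axis), 1 point per array, CKO left of control and the TCRβ-negative cells with CKO only. Open points are not well above background. Smad7 is detected on 6 arrays and undetected on the DP and TCRβ-negative arrays, and Tgfbr2 lies between 3.94 and 5.58 on those 6 arrays, above 2.75 to 3.00 on the others.

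The arrays of CD4SP, CD8SP and OT-I cells read above the DP arrays in both Smad7 and Tgfbr2. For Tgfbr2 the CD8SP difference from DP cells did not pass, and OT-I cells were not tested against DP cells for either gene. The order among these 3 populations was not resolved. For Smad7 the difference between CD4SP and CD8SP cells was 0.43 (SE 0.51, limma adjusted p = 0.691) and that between OT-I and polyclonal CD8SP cells was 0.11 (SE 0.51, limma adjusted p = 1.00). For Tgfbr2 these differences were 0.92 (SE 0.40, adjusted p = 0.397) and 0.55 (SE 0.40, adjusted p = 0.997) in limma. Skil was 1.29 higher in CD4SP than in CD8SP cells (SE 0.50, limma adjusted p = 0.364), so this step too was not resolved. In these comparisons 0.128% of genes were called higher and 0.261% lower in CD4SP than in CD8SP cells, and 0.0394% higher and 0.197% lower in OT-I than in polyclonal CD8SP cells, with no member among them.

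CD4SP cells that lacked TCRβ carried Cd4 at 6.19 and had levels of Tgfbr2 and Skil near those of DP cells. Smad7 was not well above background there, as on the DP arrays, and fell relative to CD4SP cells by at least 5.14 on the log2 scale (at least 35.2-fold, limma adjusted p = 0.0269), a call that was lost under quantile normalization (adjusted p = 0.0518) and with slide as a term (adjusted p = 0.0530). That p also rests on an undetected signal, on 1 array that leaves no residual of its own. Tgfbr2 differed from CD4SP cells by -2.87 (SE 0.51, limma adjusted p = 0.0675) and passed with normexp correction (-2.67, adjusted p = 0.0250). Skil differed by -2.57 (SE 0.64, limma adjusted p = 0.140) and Tgfb1 by -0.95 (SE 0.33, limma adjusted p = 0.240). Tgfbr1, Smad2, Smad3 and Smad4 differed by 0.36, 0.31, -0.29 and -0.09. In this contrast 0.232% of genes were called higher and 1.17% lower, and 1 of 9 members was called lower.

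Relative to DP cells, 0% of genes were called in the TCRβ-negative array in limma, against 333 of 20284 at an unadjusted p below 0.05, and 18 were called without the detection filter. The differences of the members were 0.37 for Smad2, 0.25 for Tgfbr1, 0.06 for Smad4, -0.11 for Tgfb1, -0.16 for Smad3, -0.26 for Skil and -0.52 for Tgfbr2. None is given for Smad7, undetected on all 3 arrays, or for Ski, detected on 1 DP array only. These contrasts rest on 1 CKO array and assume that the genotype effect there equals that of the populations with both genotypes. The summed level of the mature markers Ccr7, S1pr1 and Klf2 was 5.35 times the 75th percentile on the TCRβ-negative array, against 17.97 on the CKO DP array and 360 on the CKO CD4SP array. Of the myeloid and dendritic markers Itgax and Lyz2 fell in TCRβ-negative relative to CD4SP cells (at least 2.95 and 2.09 in log2). The B cell marker Cd79b rose (estimate 2.69), though its level of 3.65 on the TCRβ-negative array lay below both DP arrays. Ms4a1, the other B cell marker tested, ran the other way. It read -4.59 (undetected) on the TCRβ-negative array, against -2.29 (CKO) and -2.61 (control, undetected) on the CD4SP arrays. The proliferation genes had a median difference of 3.68, with 9 of 10 at an unadjusted p below 0.05 in limma and none called. The part of these genes in the result was not tested.

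**Figure D2:**
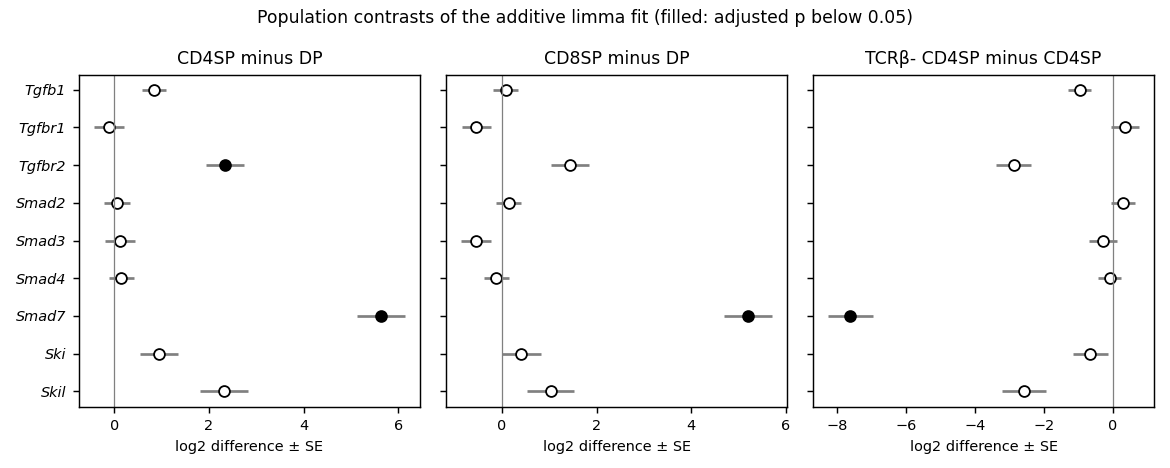
Log2 difference (x axis, point with SE bar) of the 9 transcripts in 3 population contrasts of the limma fit over 9 arrays, filled where the adjusted p is below 0.05. Filled points are Smad7 and Tgfbr2 for CD4SP minus DP, Smad7 for CD8SP minus DP and Smad7 for TCRβ-negative minus CD4SP cells. The Smad7 points are fitted values that use undetected signals, and the bounds of 4.94, 4.51 and -5.14 are smaller in size.

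The genotype question, whether the pathway's transcripts differ in cells labelled Brd1 CKO, gave no called member. In the additive fit 0.0394% of genes were called higher and 0.242% lower in CKO than in control cells, and all 9 members missed the threshold. Smad7 had the largest estimate of the 9, 1.01 (SE 0.36, unadjusted p = 0.0304, limma adjusted p = 0.405), with 3 of 4 arrays detected in each genotype. Tgfbr2 followed with 0.57 (SE 0.28, limma adjusted p = 0.517), Skil with 0.35 (SE 0.36, limma adjusted p = 0.706) and Tgfb1 with 0.29 (SE 0.18, limma adjusted p = 0.578). Smad3, Smad4, Smad2, Tgfbr1 and Ski lay at 0.23, 0.12, -0.01, -0.19 and -0.30.

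Behind these averages, Smad7, Tgfbr2 and Skil differed between genotypes by 0.95 to 2.04 on the log2 scale in the pairs of the CD8SP gate, and by -0.50 to 0.26 in the DP and CD4SP pairs, leaving out Smad7 in DP cells, where it was undetected. Each pair is a comparison of 2 arrays, and a difference past 2-fold is counted with no test. On this count 6.7% of genes were higher and 9.97% lower in CKO than in control CD8SP cells, and 8.45% higher and 13.8% lower in CKO than in control OT-I cells. Smad7 was 4.10-fold higher in CKO than in control OT-I cells and 2.75-fold higher in CKO than in control CD8SP cells. Tgfbr2 was 2.38-fold higher in the OT-I pair and 1.93-fold in the CD8SP pair, and Skil 2.30-fold and 2.01-fold. Thus 3 of 8 members compared were past 2-fold higher in the OT-I pair and 2 of 8 in the CD8SP pair, and none was past 2-fold lower in either. These counts depend on the processing: with normexp Skil came to 0.92 (CD8SP) and 0.93 (OT-I), under 2-fold, and Tgfbr2 in CD8SP cells was past it, at 1.01 to 1.10, with normexp, quantile normalization, the percentile over detected probes or the median of its probes.

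In DP cells, where 3.87% of genes were past 2-fold higher and 5.28% past 2-fold lower, no member passed it by its brightest probe, nor did any in CD4SP cells, where the shares were 3.82% and 5.25%. The CKO minus control difference of Smad7 was 0.26 in CD4SP cells, and in DP cells both arrays were undetected. The difference of Tgfbr2 was 0.03 in both the DP and the CD4SP pair. The difference of Skil was -0.29 for DP and -0.50 for CD4SP cells, so that it ran opposite to the CD8SP gate pairs. The second probes gave the same picture in part. The second Tgfbr2 probe read 2.24 and 0.80 on the CKO and control OT-I arrays and 1.54 and 0.48 on the CKO and control CD8SP arrays. The second Skil probe read 0.05 and -1.73 on the CKO and control OT-I arrays and -0.03 and -0.54 on the CKO and control CD8SP arrays, and with the median of the Skil probes the CD8SP pair differed by 0.76, under 2-fold.

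**Figure D3:**
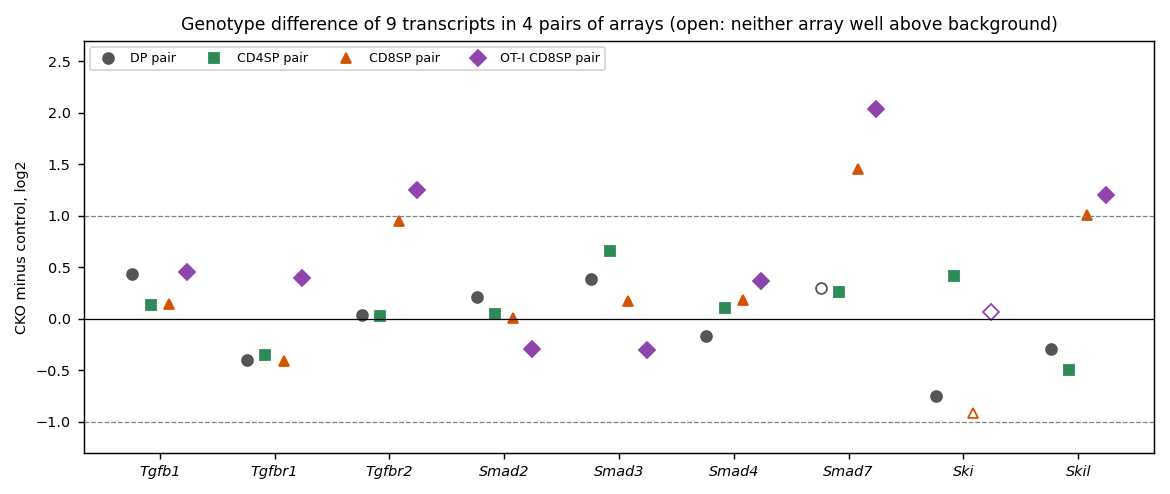
CKO minus control difference (y axis, log2) of each of the 9 transcripts (x axis) in the DP, CD4SP, CD8SP and OT-I CD8SP pairs, 1 symbol per pair (open where undetected on both arrays), with dashed lines at 2-fold. Smad7, Tgfbr2 and Skil lie between 0.95 and 2.04 in the CD8SP and OT-I pairs and between -0.50 and 0.26 in the DP and CD4SP pairs, apart from Smad7 in DP cells (open symbol).

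The contrast between the CD8SP gate pairs and the other pairs was fitted as an interaction, added after the 4 differences had been seen and read for genes picked for that pattern. Skil gave 1.50 (SE 0.33) and Tgfbr2 1.07 (SE 0.33), each with a limma adjusted p of 0.315. The value for Smad7 is left out, since its DP readings were undetected. No gene of 20284 was called in that fit (0% in each direction), against 3053 at an unadjusted p below 0.05. A difference between the pairs was therefore not resolved. The OT-I pair lay on slide 2 alone, and there Smad7, Tgfbr2 and Skil differed by 2.04, 1.25 and 1.20, and the DP and CD4SP pairs on slide 1 gave means of 0.03 for Tgfbr2 and -0.40 for Skil.

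Maturation and cell cycle genes also differed in the CD8SP gate pairs. The mature markers S1pr1 and Klf2, but not Ccr7, were past 2-fold higher in the DP pair too. The median CKO minus control difference of the mature single-positive markers Ccr7, S1pr1 and Klf2 was 1.47 for OT-I and 1.34 for CD8SP cells, with 3 of 3 past 2-fold higher in each, against 1.15 for DP and -0.08 for CD4SP cells. The proliferation genes had medians of -3.60 for OT-I cells, where 10 of 10 were past 2-fold lower, and -1.35 for CD8SP cells, where 8 of 10 were, against -0.24 for DP and -0.01 for CD4SP cells. The DP markers Rag1, Rag2, Ptcra and Dntt summed to 63.6 and 517 times the 75th percentile on the CKO and control OT-I arrays and to 434 and 816 on the CKO and control CD8SP arrays. The NK markers summed to 379 and 95.6 on the CKO and control OT-I arrays and to 198 and 117 on the CKO and control CD8SP arrays, and the myeloid and dendritic markers to 91.2 (CKO) and 66.7 (control) in the OT-I pair and 145 (CKO) and 91.0 (control) in the CD8SP pair. The NK sum was mostly Nkg7, a granule gene that cytotoxic T cells also express, at 8.56 and 6.56 on the CKO and control OT-I arrays, and Ncr1, Klrb1c and Klra8 were undetected on the CD8SP and OT-I arrays. The erythroid markers summed to 19.3 and 8.24 on the CKO and control OT-I arrays, with 2 of 3 compared past 2-fold higher. The part of these genes in the differences of Smad7, Tgfbr2 and Skil was not tested, and in RNA of sorted cells a different share of cells of a type cannot be told apart from a different amount of RNA per cell.

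**Figure D4:**
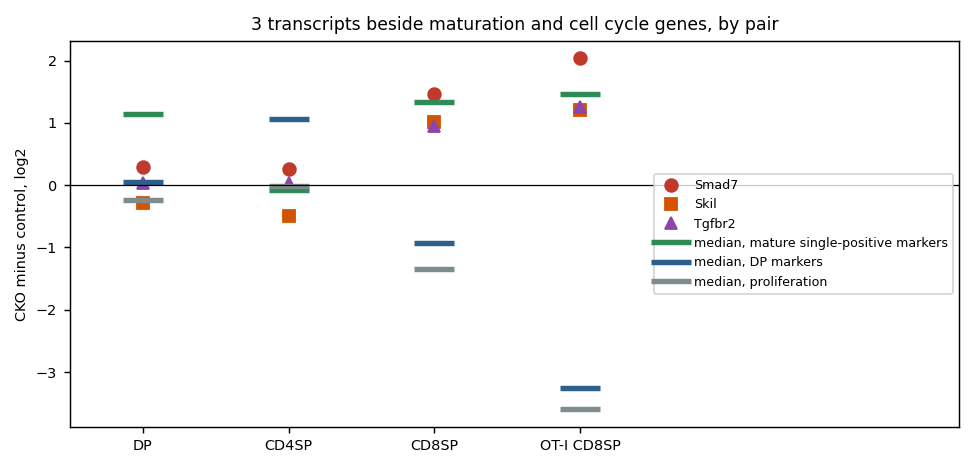
CKO minus control difference (y axis, log2) of Smad7, Skil and Tgfbr2 (symbols) in the 4 pairs (x axis), beside the median difference of mature single-positive markers, DP markers and proliferation genes (bars). In the OT-I pair the 3 transcripts lie at 1.20 to 2.04, the mature markers at 1.47 and the proliferation genes at -3.60.

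The transducers and the type I receptor had smaller genotype differences. Tgfbr1 had CKO minus control differences of -0.40 (DP), -0.35 (CD4SP), -0.41 (CD8SP) and 0.40 (OT-I), so the pairs did not all run one way. In the CD8SP pair its second probe read -1.34 (CKO) and -1.72 (control), opposite to the brighter probe. Smad3 ran from 0.66 in the CD4SP pair to -0.31 in the OT-I pair. Its second probe was undetected on both CD8SP arrays, and no direction is drawn from it there. On the DP arrays that probe read -2.21 (CKO) and -3.38 (control), past 2-fold and detected on both. The control reading lay near the lowest detected level of its array (-3.49). Smad2 differed by 0.21, 0.05, 0.01 and -0.29 in the DP, CD4SP, CD8SP and OT-I pairs, and Smad4 by -0.16, 0.10, 0.18 and 0.37. The second Smad4 probe read 1.66 and 1.87 on the CKO and control CD8SP arrays, also opposite to the brighter probe. Tgfb1 had CKO minus control differences of 0.44 (DP), 0.13 (CD4SP), 0.14 (CD8SP) and 0.45 (OT-I). Each has 1 array on each side and no measure of the spread between animals, and the share of all genes with 1 sign in all pairs was not counted.

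Around the members, 84 of 86 listed genes of the wider pathway were on the array and 62 were tested. In CD4SP relative to DP cells 9 rose and 1 fell, and in CD8SP relative to DP cells 6 rose and 1 fell, with medians of 0.12 and 0.00 over the list against 0.00 and 0.03 over all genes. Of the 15 tested genes that TGF-beta induces or represses, 7 rose in CD4SP cells and 6 in CD8SP cells relative to DP cells, with 0 falls in either. Over all genes tested 2.16% and 2.42% were called higher in these contrasts, and 0.922% and 1.04% lower. The list pools induced with repressed genes, so a rise in it gives no direction of signalling. Its risers in CD4SP over DP cells included the interleukin receptor gene Il7r (5.59, SE 0.75, limma adjusted p = 0.0249). TGF-beta supports Il7r expression in CD8 lineage thymocytes of the mouse, and Il7r also marks mature single-positive cells. The chemokine receptor gene Cxcr3, detected on 1 of 2 DP arrays, rose by 5.13 (SE 0.64, limma adjusted p = 0.0225). The extracellular matrix gene Tgfbi rose by 2.91 (SE 0.32, limma adjusted p = 0.0178). Foxp3, the factor of regulatory T cells, rose by 2.78 (SE 0.33, limma adjusted p = 0.0209) in CD4SP over DP cells. All of these genes also answer to signals other than TGF-beta.

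Among ligands and receptors, Lrrc32, which tethers latent TGF-beta to the surface of regulatory T cells, rose by 3.64 in CD4SP over DP cells (SE 0.57, limma adjusted p = 0.0328), and the type I receptor gene Acvrl1, best known from endothelial cells, rose by 4.96 (SE 0.85, limma adjusted p = 0.0433). The activin receptor gene Acvr2b fell by 3.08 in CD4SP relative to DP cells (SE 0.43, limma adjusted p = 0.0263). Gdf11, a ligand of the activin branch, was called lower in CD8SP than in DP cells (limma adjusted p = 0.0201), a p that rests on undetected signals. It was undetected on both CD8SP arrays and read -2.60 and -2.64 on the CKO and control DP arrays. These lie close to the lowest detected level of the control CD8SP array (-2.62), so no size is given for the fall. The other Smads and their partners, the negative regulators, and the ubiquitin and non-Smad genes had 0 calls in either contrast, of 8, 15 and 10 tested. Tgfb2, Inhba, Bmp2, Bmp4, Bmpr1a, Bmpr2, Bambi, Smad6 and Smad9 were well above background on no array.

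In TCRβ-negative relative to CD4SP cells 6 of the 62 fell and none rose, all 6 from the induced or repressed genes: Cxcr3, Il2rb, Id2, Foxp3, Gadd45b and Tgfbi, with a list median of -0.25 against 0.00 over all genes. Id2, an inhibitor of E proteins, read 0.55 on the TCRβ-negative array, against 4.40 and 5.41 on the CKO and control CD4SP arrays (estimate -4.37, SE 0.60, limma adjusted p = 0.0373). Foxp3 read -2.69 there, against 0.82 and 0.50 on the CKO and control CD4SP arrays (estimate -3.53, SE 0.42, limma adjusted p = 0.0324).

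No pathway gene was called for genotype, of 62 tested. Eid2, a nuclear inhibitor that in cultured cells binds Smad3, was the one listed gene past 2-fold in the same direction in all 4 pairs. It read 0.58 and -1.83 on the CKO and control DP arrays, 0.21 and -1.64 on the CKO and control CD4SP arrays, 0.17 and -1.27 on the CKO and control CD8SP arrays, 0.87 and -2.32 on the CKO and control OT-I arrays, and 0.28 on the TCRβ-negative array. Eid2 was named by that rule on these same arrays, so the additive fit adds no separate support. That fit gave 2.22 (SE 0.32, limma adjusted p = 0.0949) and did not pass. The share of all genes past 2-fold in one direction in all 4 pairs was not counted. Within pairs, 12 of 60 listed genes were past 2-fold higher and 5 lower in CKO than in control OT-I cells. In the CD8SP pair 6 of 60 were higher and 3 lower. Over all genes compared the shares were 8.45% higher and 13.8% lower in the OT-I pair, and 6.7% and 9.97% in the CD8SP pair. Il7r differed by 3.67 (OT-I), 1.81 (CD8SP), 2.01 (DP) and 0.22 (CD4SP). Eng, a coreceptor for TGF-beta, differed by 2.91 in the OT-I pair, and P2rx7, a nucleotide-gated channel, by -2.71.

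The genes most like Tgfbr2 over the 9 arrays, of 9791 named candidates, were Gpr65, a proton-sensing receptor (Pearson r = 0.990), Mllt6 (r = 0.988) and Dipk1a (r = 0.988), and 280 candidates had r above 0.9. Those most like Skil were Cyld, a deubiquitinase (r = 0.980), H2-T24 (r = 0.975) and Zfp467 (r = 0.974), with 72 above 0.9, and those most like Smad3 were Tram1 (r = 0.945), Pik3r4 (r = 0.943) and Zcchc2 (r = 0.938), with 6 above 0.9. Tgfbr2 and Skil correlated with r = 0.864. These are descriptions over 9 arrays that share sorted populations, slides and maturation differences.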

How the data were processed

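Per the file headers, the authors' deposited scanner files hold the background-subtracted intensity of each spot, made with Agilent Feature Extraction 10.7.1.1 on a Cy3 array of design 028005, whereas the labels' protocol names biotinylated cRNA. The authors' deposited series table holds the same intensity divided by the array's 75th percentile. Spots were averaged per probe, 144 of 55681 probes marked as outliers were left out, and RefSeq accessions named 26715 probes. Levels are log2 intensity minus the array's 75th percentile; the deposited values are linear. All 9 groups have 1 array, and their number limits the precision.

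The test was limma 3.58.1 in R 4.3.3, with population and genotype additive over 9 arrays (3 residual degrees of freedom), two-sided, for genes well above background on at least 2 arrays, with Benjamini-Hochberg adjustment over 20284 genes. The error is the spread of the genotype difference between populations, which may be technical. The labels do not say how many animals gave the RNA of an array. In pairs, an undetected level was raised to the array's lowest detected level before counting genes past 2-fold. The scaling moved all genes of the DP, CD8SP and OT-I pairs by medians of -0.22, 0.14 and 0.28 when the percentile was taken over probes detected on all arrays. Normexp (offset 50) used the median spot signal, not the mean signal first planned. The fit was tested on simulated data. A marker each of mature single-positive and of B cells is not reported here. Members, lists and tests were chosen with earlier results of these data known. Named genes were all members, up to 10 called listed genes per contrast and up to 3 listed genes in each direction per pair, with 3 genes of most like pattern for the 3 always-detected members of widest range; others named were chosen after their values were seen. Alternatives were other background corrections, scalings, probe choices and filters, slide, and leaving out each pair.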

Additional observations from a re-analysis of the deposited data

Results flagged for a closer look

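Listed genes of the wider pathway differed past 2-fold in opposite directions in a pair of populations, and these differences between populations were not tested. Each value is the difference of 2 arrays, CKO minus control. The ligand gene Tgfb3 differed by at least 1.69 in DP cells, where the control was undetected, and by -2.54 in OT-I cells. The receptor gene Acvrl1 differed by 1.80 in OT-I cells and -2.04 in CD4SP cells. Ldlrad4, an inhibitor of Smad activation, differed by at least 1.29 in CD4SP cells, where the control was undetected, and by -1.56 in OT-I cells. The chemokine receptor gene Cxcr3 differed by 1.42 in CD8SP cells and -1.06 in CD4SP cells. Rgs16, a regulator of G protein signalling, differed by at least 1.76 in OT-I cells, where the control was undetected, and by -1.19 in CD4SP cells. With 1 array per group no array could be set against others of its group.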

How the results depend on the processing

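No paired analysis was possible beyond the population term of the additive fit, which already sets CKO against control within each population. Each group has 1 array and the labels carry no replicate numbers. The cause of the changes below was not tested.

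With normexp the calls numbered 959 (CD4SP minus DP), 1552 (CD8SP minus DP) and 577 (TCRβ-negative minus CD4SP), against 626, 702 and 284, and genes past 2-fold 489 (DP), 512 (CD4SP), 1099 (CD8SP) and 2279 (OT-I), against 1837, 1796, 3103 and 4134. With the percentile over detected probes they numbered 32 (genotype), 15 (CD4SP minus CD8SP), 29 (OT-I minus CD8SP) and 91 (TCRβ-negative minus CD4SP), against 57, 79, 48 and 284, and with quantile normalization 29 (genotype) and 0 (TCRβ-negative minus CD4SP). Without the filter they numbered 96 (genotype), 121 (CD4SP minus CD8SP), 18 (TCRβ-negative minus DP, against 0) and 439 (TCRβ-negative minus CD4SP). With slide as a block they numbered 0 for genotype, CD8SP minus DP, CD4SP minus CD8SP and TCRβ-negative minus CD4SP, 285 for CD4SP minus DP and 17 for OT-I minus CD8SP. Slide 1 alone gave 132 genotype calls, and leaving out each pair 0 to 24: 0 without the DP, CD4SP or CD8SP pair and 24 without the OT-I pair. In limma 2217 genes had an unadjusted genotype p below 0.05.

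The genotype split of 8 higher and 49 lower became 24 and 26 with normexp. With the percentile over detected probes the split past 2-fold became 475 higher and 1587 lower in DP (against 777 and 1060), 1664 and 1421 in CD8SP (against 1247 and 1856), and 2686 and 1734 in OT-I cells (against 1573 and 2561).

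Among members no genotype value was called under any alternative. Genotype estimates that changed sign were Smad2 (0.021 with normexp, 0.038 with the percentile over detected probes, 0.0078 with quantile, 0.13 on slide 1, and -0.081 to 0.089 when each pair was left out, the highest without the OT-I pair), Smad4 (-0.031) and Skil (-0.40) on slide 1, and Tgfbr1 (0.40), Smad3 (-0.31) and Ski (0.065) on slide 2. Smad7 for CD8SP minus DP was 4.90 with slide as a block, and for TCRβ-negative minus CD4SP -7.30 with quantile and -7.53 with slide as a block, all past no threshold; Tgfbr2 for CD4SP minus DP was 2.41, 2.47, 2.24 and 2.35 where its call was lost. Among pair differences, which have no test, Tgfbr2 in DP cells was -0.18 with the percentile over detected probes, -0.18 with quantile and -0.0032 with normexp, against 0.03, and in CD4SP cells -0.079 with the median of its probes, against 0.03. Skil was under 2-fold in CD8SP cells with normexp (0.92) and the median of its probes (0.76) and in OT-I cells with normexp (0.93), and Tgfbr2 in CD8SP cells came past it with 4 alternatives (1.01 to 1.10).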
